A study of Rattus norvegicus with 47 samples.

Results

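Pattern-recognition and regulatory receptors of myeloid blood cells, with 1 signalling adaptor among them, were followed in rat blood over the first day of cerebral ischaemia. The 10 genes are Clec4d, Clec4e, Clec7a, Trem1, Tyrobp, Mcemp1, Cd33, Cd300lf, Pilra and Bst1. They were found by their gene symbol in a table of 27596 probe sets that holds 20935 gene symbols, and each had 1 probe set. The samples were whole blood cell pellets of 8 male spontaneously hypertensive rats (SHR), 16 weeks of age, taken from the same animals at 0 h, before the operation, and at 1, 2, 3, 6 and 24 h post MCA occlusion. The middle cerebral artery (MCA) was blocked by a thread under isoflurane anaesthesia. The thread was withdrawn, under renewed anaesthesia, after the 1 h sample and before the 2 h sample. There were 8 arrays per time point except at 6 h, where there were 7, and no sham-operated group was analysed here, so that time, surgery, anaesthesia, occlusion and reperfusion cannot be told apart. Tail vein blood was used through 6 h and heart blood, taken under terminal anaesthesia, at 24 h, and this change of site cannot be told apart from the last time step.

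Receptors of this kind sit on neutrophils, monocytes, macrophages and dendritic cells and let these cells read microbial sugars, lipids and the debris of dying cells. Activating members, such as the C-type lectins and TREM-1, pass the signal through an immunoreceptor tyrosine-based activation motif (ITAM), carried by an adaptor such as FcRγ or DAP12 or by a short form of it in their own tail, to the kinase SYK. Inhibitory members carry an ITIM motif that recruits phosphatases and damps the same pathway, and many activating and inhibitory receptors occur as pairs encoded side by side. In whole blood, a change in the number of cells that carry a receptor and a change in its mRNA per cell cannot be told apart.

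Promoter windows of the members were taken from RefSeq (assembly GRCr8, 250 bases before to 50 bases after the annotated start), where 9 of the 10 genes matched and Cd33 had 2 starts, giving 10 windows. Windows of 4 genes are shown: Clec4d and Clec4e because these genes lie side by side and rose at the same time points, Cd33 because its change was the largest, and Mcemp1 because it came next. The window of the other Cd33 start held none of the searched motifs and is not printed. Each is printed 5′ to 3′ in the direction of the gene. Capitals mark the letters of a searched motif on either strand: GAGGAA, the core bound by PU.1-type ETS factors of myeloid cells; TTGCNNAA, bound by C/EBP factors; and TGANTCA, bound by AP-1.
Clec4d (chr4:158275093-158275392, plus strand): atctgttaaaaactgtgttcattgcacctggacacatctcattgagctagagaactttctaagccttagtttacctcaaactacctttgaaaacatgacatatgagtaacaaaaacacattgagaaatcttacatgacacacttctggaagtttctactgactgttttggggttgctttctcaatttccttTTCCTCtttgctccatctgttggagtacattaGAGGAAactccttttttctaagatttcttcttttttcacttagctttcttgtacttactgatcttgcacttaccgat
Clec4e (chr4:158298418-158298717, minus strand): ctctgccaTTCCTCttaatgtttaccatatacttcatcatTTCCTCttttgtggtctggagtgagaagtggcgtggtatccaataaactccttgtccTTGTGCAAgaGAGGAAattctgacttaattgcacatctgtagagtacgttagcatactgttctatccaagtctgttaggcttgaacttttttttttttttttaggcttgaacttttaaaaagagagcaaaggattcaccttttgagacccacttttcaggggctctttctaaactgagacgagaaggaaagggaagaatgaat
Cd33, second start (chr1:103074649-103074948, minus strand): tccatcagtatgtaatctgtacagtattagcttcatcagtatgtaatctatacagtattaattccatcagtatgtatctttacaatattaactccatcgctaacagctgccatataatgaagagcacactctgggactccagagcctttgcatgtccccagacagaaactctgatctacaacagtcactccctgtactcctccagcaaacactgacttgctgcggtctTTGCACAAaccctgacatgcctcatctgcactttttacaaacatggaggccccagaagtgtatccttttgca
Mcemp1 (chr12:6520017-6520316, plus strand): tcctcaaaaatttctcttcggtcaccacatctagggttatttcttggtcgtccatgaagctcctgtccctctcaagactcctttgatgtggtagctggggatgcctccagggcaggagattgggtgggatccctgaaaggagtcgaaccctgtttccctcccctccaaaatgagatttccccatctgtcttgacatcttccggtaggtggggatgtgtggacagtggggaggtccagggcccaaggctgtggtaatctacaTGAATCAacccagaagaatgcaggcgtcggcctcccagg
The PU.1-type core was found in 5 of the 10 windows, those of Clec4d, Clec4e, Trem1, Cd300lf and Bst1, against 27.6% of all 33465 promoter windows. The C/EBP letters were found in 3, those of Clec4e, Cd33 and Pilra, against 10.6% of all windows. In Clec4e the C/EBP match, at -153 to -146 from the start, stood just before a PU.1-type core at -143 to -138. The AP-1 letters were in the Mcemp1 window alone, at 12 to 18 bases past the start, against 7.33% of all windows. The NF-κB letters (GGGA and TTCC with 2 bases between them), held by 1.3% of all windows, and the glucocorticoid receptor letters (GNACA and TGTNC with 3 bases between them), held by 0.439%, were in none of the 10. These matches are descriptions of the letters in the windows and no factor was measured on them.

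Of the 10 genes, 8 were higher than at 0 h by 1 h post MCA occlusion, and 9 were higher at 2 and 3 h. Levels are the authors' means of the log2 RMA signal at each time point, and 1 unit of change is a doubling. Differences between time points were tested with a moderated test (limma's empirical Bayes variance, computed from the authors' means and SDs) and adjusted over all 27596 probe sets to a false discovery rate (FDR), with 0.05 as the threshold. At 1 h, 8 members were higher, against 21.7% of all probe sets, and none was lower, against 15.4%. At 2 h, 9 were higher, against 21.7% of all probe sets, and none was lower, against 18.6%. Before adjustment, limma's test at 0.05 found Pilra lower at 1 h and no member lower at 2 h. At 3 h, 9 were higher, against 27.3%, and Pilra was lower, against 19.2%. At 6 h, 8 were higher, against 22.5%, and Pilra was lower, against 19.3%. At 24 h, 6 were higher, against 17.4%, and Pilra remained lower, against 13.9%. The median of the 10 changes from 0 h was 0.72 (1 h), 1.19 (2 h), 1.31 (3 h), 1.44 (6 h) and 0.51 (24 h), while the median over all probe sets lay between 0.04 and 0.07. In the moderated F-test over the 6 time points all 10 genes had an FDR below 0.05, as did 55.5% of probe sets. Each comparison with 0 h uses the same 0 h arrays, so the 5 are not independent of one another.

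**Figure D1:**
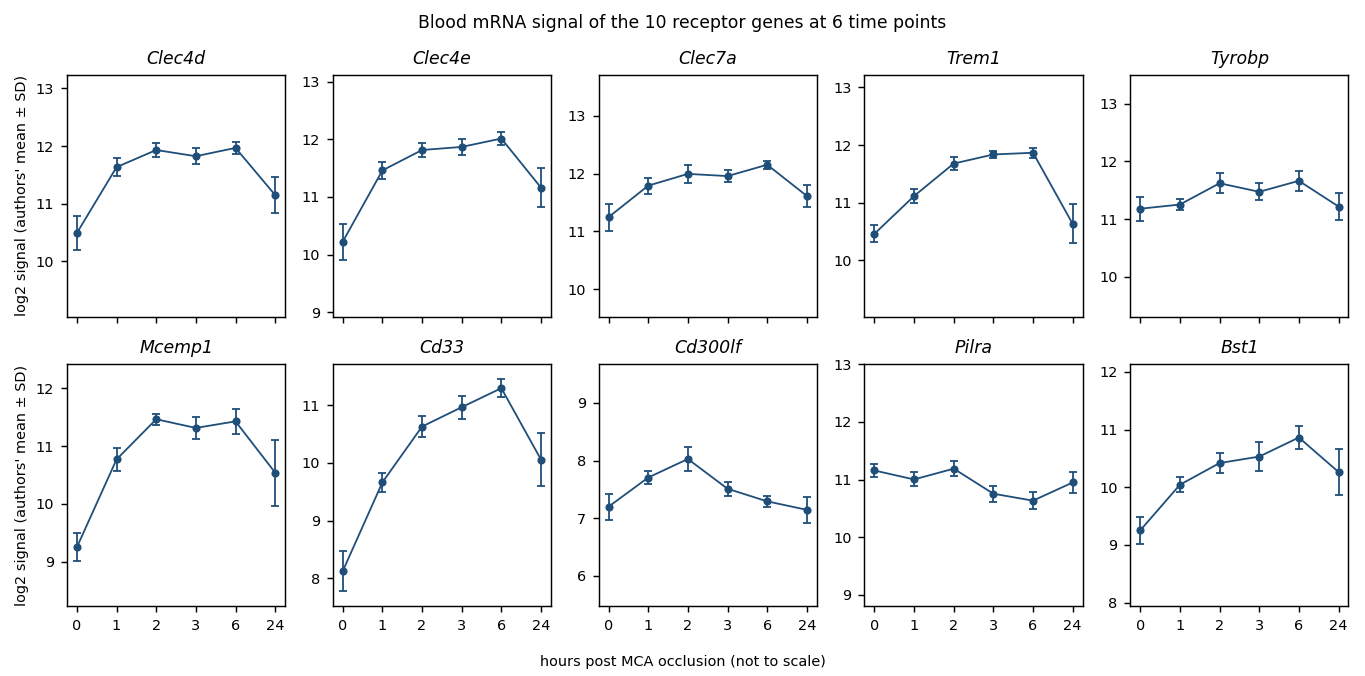
Authors' mean log2 signal of each of the 10 genes (y axis, one panel per gene, all panels spanning the same number of log2 units) against hours post MCA occlusion (x axis, not to scale). Bars are the authors' SD over 8 arrays, or 7 at 6 h. Most genes climb within 1 to 2 h, stay high to 6 h and come down at 24 h with wider bars, Cd300lf peaks at 2 h, and Pilra dips at 3 and 6 h.

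The activating C-type lectins rose together and early. Clec4d (dectin-3, also called MCL) and Clec4e (Mincle) are lectins that bind mycobacterial glycolipid and pair with FcRγ, and Mincle also senses a nuclear protein released by dead cells. Clec4d (probe set 10858599) lies on chromosome 4 of rn5, from 223270168 to 223279220 on the plus strand. The authors' means and SDs were 10.49 (0 h, SD 0.29), 11.64 (1 h, SD 0.16), 11.93 (2 h, SD 0.13), 11.82 (3 h, SD 0.14), 11.97 (6 h, SD 0.11) and 11.15 (24 h, SD 0.31). The means from 1 to 6 h stood well above the 0 h mean by several SDs and the 24 h mean lay between them. Clec4d rose by 1.14 ± 0.10 (SE) at 1 h, an FDR of 1.39e-12, which was 77.4% of its largest change, 1.48 ± 0.10 at 6 h. From 1 h to 6 h no neighbouring pair in the order of its levels differed past the threshold, the step from 1 to 2 h reaching 0.30 with an FDR of 0.0528, while the 6 h mean stood 0.33 above that at 1 h, an FDR of 0.0165.

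Clec4e (probe set 10865381) lies on the opposite strand of the same stretch, from 223287986 to 223293123, with 8765 bases between the 3′ ends of the pair. Its means, as the authors give them, were 10.22 (0 h, SD 0.31), 11.46 (1 h, SD 0.15), 11.81 (2 h, SD 0.13), 11.87 (3 h, SD 0.14), 12.01 (6 h, SD 0.12) and 11.16 (24 h, SD 0.33). Like Clec4d it was lowest at 0 h and highest at 6 h, with a further rise of 0.35 ± 0.11 from 1 to 2 h, an FDR of 0.0249. The largest change was 1.79 ± 0.11 at 6 h, a fold of 3.46, of which 52.4% was left at 24 h, against 44.6% for Clec4d.

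Clec7a (dectin-1) is the receptor for fungal β-glucan and signals through a short ITAM in its own tail. Its probe set, 10866019, lies elsewhere on chromosome 4, from 211861354 to 211870753 on the minus strand. By time point, the authors' means were 11.25 (0 h, SD 0.23), 11.79 (1 h, SD 0.14), 12.00 (2 h, SD 0.16), 11.96 (3 h, SD 0.10), 12.15 (6 h, SD 0.07) and 11.61 (24 h, SD 0.19). The rise was 0.55 ± 0.08 at 1 h and reached 0.91 ± 0.08 at 6 h, and the change left at 24 h was 0.37, with an FDR of 0.000382, a call that Bonferroni adjustment did not keep. The 1, 2, 3 and 6 h means followed one another without a difference past the threshold between neighbours in their order, while the 6 h mean stood 0.36 above that at 1 h, an FDR of 0.000759.

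Trem1, the amplifying receptor of neutrophils and monocytes, rose in 2 steps and had lost most of that rise at 24 h. Trem1 (probe set 10926277) lies on chromosome 9 of rn5, from 13649249 to 13664609 on the minus strand. Over the 6 time points the authors' means ran 10.46 (0 h, SD 0.15), 11.12 (1 h, SD 0.13), 11.68 (2 h, SD 0.11), 11.84 (3 h, SD 0.05), 11.87 (6 h, SD 0.08) and 10.63 (24 h, SD 0.34). Only 46.6% of its largest change, 1.41 ± 0.09 at 6 h, had been reached at 1 h, and it rose again by 0.56 ± 0.08 from 1 to 2 h, an FDR of 7.05e-06. It then fell by 1.23 between 6 and 24 h, and the 24 h mean stood 0.17 ± 0.08 above 0 h, with a 95% interval from 0.0023 to 0.34 and an FDR of 0.114, and 12.2% of the largest change was left. After quantile normalization of the means the 24 h change passed the threshold (0.24, FDR 0.036).

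Tyrobp encodes DAP12, the adaptor on which TREM-1 and many activating partners depend, and it had the smallest largest change of the 9 members that rose. Tyrobp (probe set 10705874) lies on chromosome 1 of rn5, from 90031123 to 90034979 on the plus strand. The authors' means and SDs were 11.18 (0 h, SD 0.20), 11.25 (1 h, SD 0.10), 11.62 (2 h, SD 0.18), 11.47 (3 h, SD 0.15), 11.66 (6 h, SD 0.17) and 11.22 (24 h, SD 0.24). At 1 h it differed from 0 h by 0.07, with a 95% interval from -0.10 to 0.25 and an FDR of 0.536, at the same time point at which Trem1 had risen. It then rose, by 0.44 ± 0.09 (2 h), 0.29 ± 0.09 (3 h) and 0.48 ± 0.09 (6 h), a fold of 1.40 at most, and none of these 3 calls held with Bonferroni adjustment over all probe sets. The change at 24 h was 0.04, with an interval from -0.14 to 0.21 and an FDR of 0.767. No test between members was made, because the covariance of their probe sets over arrays was not used here.

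Mcemp1, a small membrane protein named for its expression in mast cells, had the next largest change after Cd33. Mcemp1 (probe set 10759604) lies on chromosome 12 of rn5, from 4374599 to 4378610 on the plus strand. Its means, as the authors give them, were 9.25 (0 h, SD 0.24), 10.77 (1 h, SD 0.20), 11.47 (2 h, SD 0.10), 11.32 (3 h, SD 0.19), 11.43 (6 h, SD 0.21) and 10.54 (24 h, SD 0.57). It rose by 1.52 ± 0.14 at 1 h and by a further 0.70 ± 0.14 to 2 h, where the change from 0 h was largest, 2.22 ± 0.14 or a fold of 4.65. The 2, 3 and 6 h means did not differ past the threshold between neighbours in their order. At 24 h 1.29 ± 0.14 was left, with the widest SD of any member at any time, 0.57. Of the 9 mast cell and basophil markers, 2 were higher at 1 h, against 21.7% of all probe sets, and the lowest change was -0.17: Gata2, a transcription factor, by 0.16 (FDR 0.0129) and Tpsb2, a mast cell tryptase, by 0.19 (FDR 0.00569). At 3 h Gata2 was higher by 0.13 (FDR 0.0409), against 27.3% of all probe sets, and 4 were lower, against 19.2%. With centred or quantile-normalized means, 1 marker was higher at 1 h and 0 at 3 h, and with the SDs of the compared times alone 0 were higher at 3 h. At 2 and 6 h their highest changes were 0.11 and 0.07. At these times 3 and 5 were lower, against 18.6% and 19.3% of all probe sets, with median changes of -0.22 and -0.28. The mean of these markers' log2 levels was 6.10 at 0 h, below the median over all probe sets, 6.61. Hdc, the histamine-forming enzyme, had a change of -0.30 at 2 h.

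Among the receptors that bind sialic acid or lipid and are grouped with the inhibitory side, the 3 members went 3 ways. Cd33, a sialic acid-binding lectin of the Siglec family, had the largest change of the 10 genes and ranked 9 of 27596 probe sets by the moderated F-test. Cd33 (probe set 10721261) lies on chromosome 1 of rn5, from 99475641 to 99478839 on the plus strand. Its promoter windows in GRCr8 are on the minus strand, and this difference in strand was not examined. By time point, the authors' means were 8.12 (0 h, SD 0.35), 9.66 (1 h, SD 0.16), 10.63 (2 h, SD 0.18), 10.97 (3 h, SD 0.20), 11.30 (6 h, SD 0.16) and 10.06 (24 h, SD 0.46). The level stepped up by 1.54 ± 0.13 to 1 h and by 0.97 ± 0.13 from 1 to 2 h. The later steps, 0.34 from 2 to 3 h and 0.33 from 3 to 6 h, had FDRs of 0.173 and 0.175. The 6 h mean stood 0.67 above that at 2 h, an FDR of 0.000501. At 6 h Cd33 stood 3.17 ± 0.14 above 0 h, a fold of 9.01, and at 24 h 1.93 ± 0.13 of it was left, or 60.9%.

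Cd300lf, an ITIM receptor that binds phosphatidylserine and other lipids, had a short peak. Cd300lf (probe set 10748870) lies on chromosome 10 of rn5, from 104617430 to 104633533 on the plus strand. As for Cd33, its promoter window in GRCr8 is on the minus strand, which was not examined. Over the 6 time points the authors' means ran 7.20 (0 h, SD 0.23), 7.71 (1 h, SD 0.12), 8.03 (2 h, SD 0.21), 7.51 (3 h, SD 0.12), 7.29 (6 h, SD 0.10) and 7.15 (24 h, SD 0.23). The rise was 0.51 ± 0.09 at 1 h and 0.83 ± 0.09 at 2 h, after which the level fell by 0.52 between 2 and 3 h, an FDR of 8.75e-05. The 3 h mean was still 0.31 above 0 h, a call lost with Bonferroni adjustment. Its changes from 0 h at 6 and 24 h were 0.09 and -0.05, with FDRs of 0.423 and 0.663. The 2 h mean was the only one to stand apart from its neighbour in the order of the 6 levels.

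Pilra, the inhibitory partner among the paired immunoglobulin-like type 2 receptors, was the one member with levels below that at 0 h past the threshold. Pilra (probe set 10761025, which the table also labels LOC100910669) lies on chromosome 12 of rn5, from 23699578 to 23710286 on the plus strand. The authors' means and SDs were 11.16 (0 h, SD 0.11), 11.00 (1 h, SD 0.12), 11.19 (2 h, SD 0.13), 10.75 (3 h, SD 0.14), 10.63 (6 h, SD 0.15) and 10.95 (24 h, SD 0.18). The level at 2 h differed from 0 h by 0.03, with an interval from -0.11 to 0.17, and then fell by 0.43 between 2 and 3 h, an FDR of 4.62e-05. Pilra stayed below its 0 h level, with changes of -0.40 ± 0.07 (3 h), -0.52 ± 0.07 (6 h) and -0.21 ± 0.07 (24 h), the last lost with Bonferroni adjustment. The 1 h change was -0.16, with an FDR of 0.0763, and it passed the threshold after the means of each time point were centred on their median (-0.20, FDR 0.0221).

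Bst1 (CD157) is a membrane-anchored enzyme of neutrophils and monocytes that makes cyclic ADP-ribose from NAD. Bst1 (probe set 10777242) lies on chromosome 14 of rn5, from 71827475 to 71837023 on the minus strand. Its means, as the authors give them, were 9.25 (0 h, SD 0.24), 10.04 (1 h, SD 0.13), 10.42 (2 h, SD 0.17), 10.53 (3 h, SD 0.26), 10.86 (6 h, SD 0.20) and 10.27 (24 h, SD 0.40). The change from 0 h was 0.79 ± 0.12 (1 h), 1.17 ± 0.12 (2 h), 1.28 ± 0.12 (3 h) and 1.61 ± 0.12 (6 h), all past the threshold. The 6 h mean stood 0.44 above that at 2 h, an FDR of 0.0129. At 24 h 1.01 ± 0.12 was left, 62.9% of the largest change. Bst1 and Cd33 had the largest shares left at 24 h, and in both the 24 h mean lay above the 1 h mean without a difference past the threshold, with FDRs of 0.345 and 0.0691. Among 7 NAD-handling enzymes measured, 2 were higher and 3 lower at 6 h, against 22.5% and 19.3% of all probe sets. Cd38, the related cyclase, had a change of -0.62 at 6 h and Art2b, a T cell ADP-ribosyltransferase, of -1.09 at 3 h.

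Between neighbouring times, the members moved in 2 main steps after the first hour. The step from 1 to 2 h spans the withdrawal of the thread and the renewed anaesthesia for it. In this step 7 members rose further (Clec4e, Trem1, Tyrobp, Mcemp1, Cd33, Cd300lf and Bst1), against 4.66% of all probe sets. None fell, against 4.11%. The other 3 members, Clec4d, Clec7a and Pilra, also had upward changes in this step, of 0.30, 0.20 and 0.19, with FDRs of 0.0528, 0.101 and 0.0899 and unadjusted p values below 0.05 by limma's test. With Bonferroni adjustment, chosen for these steps after the data were seen, 2 of the 7 rises held, those of Trem1 and Cd33, and Bst1 also missed the threshold without moderation (FDR 0.05). From 2 to 3 h Cd300lf and Pilra fell, against 1.62% of all probe sets, and none rose, against 1.9%, with Cd33 at an unadjusted p of 0.0148. From 3 to 6 h no member changed past the threshold by the moderated test or by the ordinary test without moderation, while 2.34% of all probe sets rose and 2.44% fell. In that step 5 members had an unadjusted p below 0.05: Clec7a, Tyrobp, Cd33 and Bst1 upward and Cd300lf downward. From 6 to 24 h 8 members fell, against 8.68% of all probe sets, and Pilra rose by 0.32, against 10.2%. With Bonferroni adjustment 6 of these 8 falls held, all but those of Tyrobp and Bst1, and the rise of Pilra did not. The falls ranged from -0.45 in Tyrobp to -1.24 in Cd33, and Cd300lf, already near its 0 h level, differed by -0.15 with an FDR of 0.289.

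**Figure D2:**
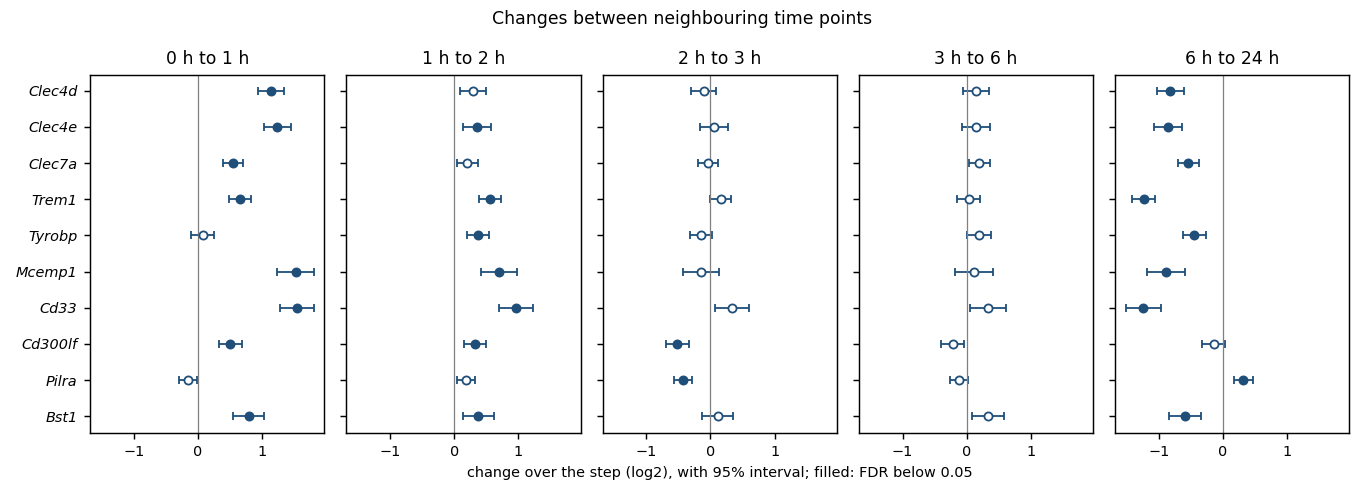
Change in log2 signal of each of the 10 genes over each step between neighbouring time points (x axis), with its 95% interval as a bar. Filled points passed an FDR of 0.05 and open points did not. The first step holds 8 filled points to the right, the step from 3 to 6 h none, and the last step 8 to the left and Pilra to the right.

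The spread between the arrays of a time point was itself uneven. The median of the 10 members' authors' SDs was 0.24 (0 h), 0.14 (1 h), 0.15 (2 h), 0.14 (3 h), 0.13 (6 h) and 0.32 (24 h), while the median over all probe sets stayed between 0.14 and 0.16. The highest of the 6 SDs was that at 24 h in 9 of the 10 members, and that at 0 h in Clec7a. Over all probe sets 17.5% had their highest SD at 24 h. In the marker lists, 7 of 16 neutrophil markers, 5 of 10 B cell markers and 6 of 12 T cell markers also had their highest SD at 24 h, as did 3 of 9 mast cell and basophil, 2 of 8 dendritic cell, 1 of 14 monocyte, 1 of 9 NK cell, 1 of 9 erythroid and 0 of 7 platelet markers. Since the test pools the variance over the 6 time points, its errors are too small for a contrast with a wide time point and too large for others. With the SDs of the compared times alone, all 7 calls at 24 h and all 9 of the step from 6 to 24 h stayed past the threshold.

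**Figure D3:**
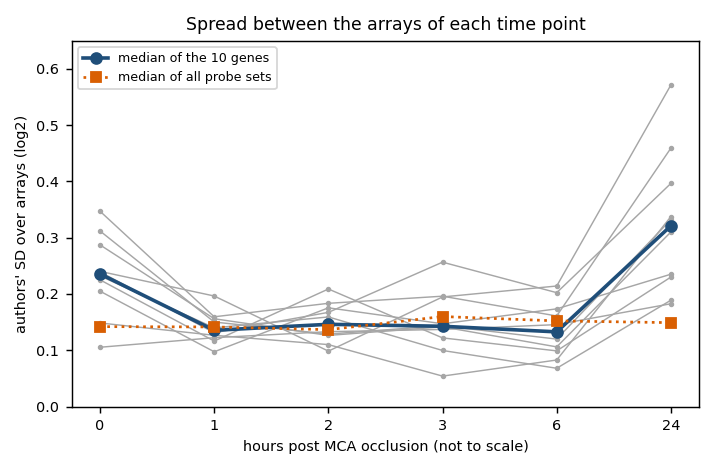
Authors' SD over the arrays of each time point, on the log2 scale (y axis), against hours post MCA occlusion (x axis, not to scale). Thin lines are the 10 genes, the thick line their median and the dotted line the median of all probe sets. The members' median is 0.24 at 0 h, between 0.13 and 0.15 from 1 to 6 h, and 0.32 at 24 h.

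The relatives of these receptors split, gene by gene, between rises and falls. At 6 h, 22.5% of all probe sets were higher and 19.3% lower. Of 24 other C-type lectin receptor genes listed, 19 were measured, and at 6 h 12 of them were higher and 6 lower, with a median change of 0.52. The largest rise was that of Clec4b2, a receptor of the same cluster as Clec4d, at 3.09 at 6 h (FDR 2.32e-18), followed by Clec5a, the DAP12-coupled lectin of myeloid cells, at 1.81 at 2 h (FDR 2.45e-13). The TREM-like list held 5 other genes on 4 probe sets. At 6 h Trem2 was higher by 0.21, and the probe set shared by Trem3 and Treml4 was lower, with a change of -0.41. Of 12 other CD300, PILR and Siglec genes measured, 5 were higher and 3 lower at 6 h. Siglec8 rose by 2.04 at 6 h, and Cd22, the inhibitory Siglec of B cells, fell by 1.52 at 3 h. Of 10 other paired receptors, on 9 probe sets, 6 were higher and 2 lower at 6 h, the 2 lower being Lilrb3 and Lilra5, which share a probe set. Oscar, an FcRγ-coupled receptor, rose by 2.41 at 6 h, and Pirb, an inhibitory paired receptor, by 1.59 at 2 h.

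Listed neighbours on the chromosome moved in both directions, some with the member beside them and some against it. The listed genes within 500 kb of a member were looked at after their values were known. In the Clec4 cluster on chromosome 4, Clec4b2, Clec4a and Clec4a2 were higher at 6 h, by 3.09, 0.27 and 0.52, while Clec4a1 and Clec4a3 were lower, with changes of -0.84 and -0.87. Next to Clec7a, Clec1a, 3341 bases away, rose by 1.74 at 6 h and Clec9a by 1.22. Olr1, the receptor for oxidized lipoprotein, had a change of -0.46 at 1 h and of 1.20 at 6 h. Clec12b, an inhibitory lectin, was higher there by 0.63 at 6 h (FDR 0.012). In the same stretch Clec1b, the platelet lectin CLEC-2, differed by -0.03 at 6 h with an FDR of 0.764, and Cd69, the early activation marker of lymphocytes, was lower, with a change of -1.36. Next to Trem1, the probe set of Trem3 and Treml4, 3796 bases away, was lower at all 5 later times, with changes between -0.41 and -0.73, while Trem2 was higher at 6 h (0.21, FDR 0.00181) and Treml2 at 3 h (0.30, FDR 0.0247). Near Cd33, Siglec5 was higher by 0.48 at 6 h and Siglec10 lower, with a change of -0.73. Near Cd300lf, Cd300e was lower at 1 h (-0.62) and differed by 0.03 at 6 h, and Cd300le was lower, with a change of -0.45 at 6 h. Near Tyrobp, Cd22, 436 kb away, was lower, with a change of -1.32 at 6 h (FDR 1.03e-11), and Mag, a Siglec of myelin, differed by -0.08 with an FDR of 0.394. Near Mcemp1, Clec4g and Cd209a were lower at 6 h, with changes of -0.26 and -1.17. Several of these genes are close copies of one another, and whether probes of one detect another was not tested.

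**Figure D4:**
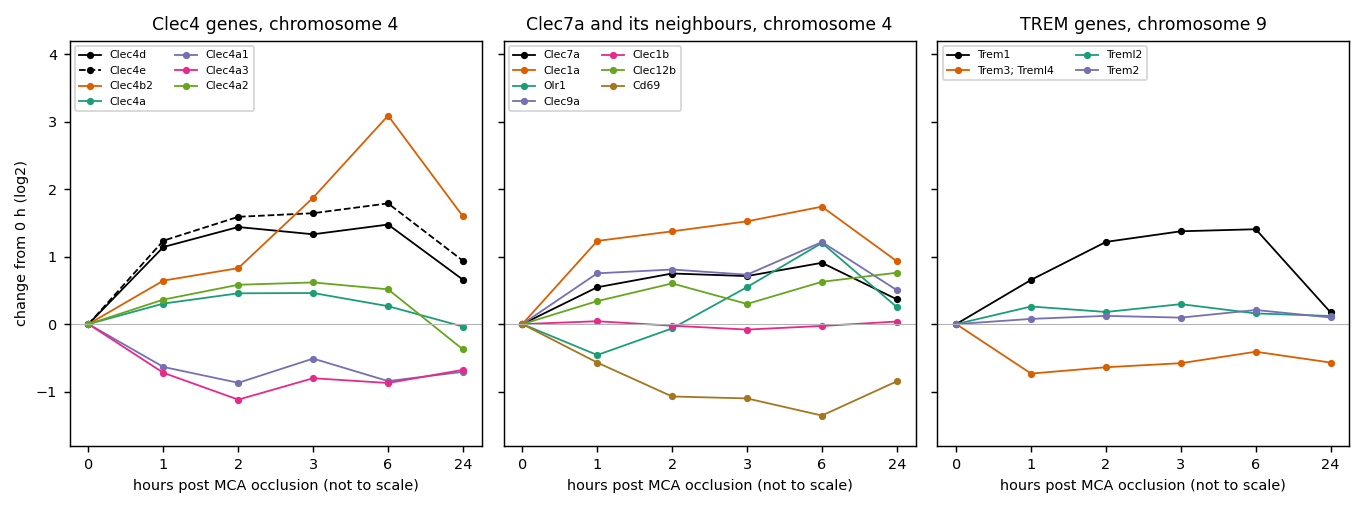
Change in log2 signal from 0 h (y axis) against hours post MCA occlusion (x axis, not to scale) for Clec4d and Clec4e, Clec7a and Trem1 (black) and for the listed genes within 500 kb of them (colours). Lines are differences of the authors' means, without error bars. Clec4b2 reaches 3.09 at 6 h while Clec4a1 and Clec4a3 stay below 0, and the Trem3 and Treml4 probe set stays below 0 beside a rising Trem1.

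Of 18 ITAM and SYK pathway genes, 7 were lower at 1 h, against 15.4% of all probe sets, and the highest change was 0.12. At 6 h 7 were higher, against 22.5%, and 4 lower, against 19.3%. The list's median changes at 1 and 6 h were -0.11 and 0.02. The 2 largest changes were falls, of Blnk, the B cell linker, by 1.77 and of Malt1, a protease of NF-κB signalling, by 1.29, both at 2 h. Fcer1g, which encodes FcRγ, the adaptor of Clec4d and Clec4e, differed from 0 h by at most 0.07, with FDRs from 0.0846 to 0.893. Its mean over the time points was 12.89, and whether the arrays could show a rise from that level was not tested. Syk itself rose by 0.36 at 2 h and by 0.35 at 6 h. Of 12 ITIM phosphatases and brakes, 3 were higher and 4 lower at 6 h, beside 22.5% and 19.3% of all probe sets. Socs3, the feedback inhibitor of cytokine signalling, rose by 1.74 at 3 h and Dok3, an inhibitory adaptor of immune cells, by 0.52 at 2 h, while Inpp5d, the lipid phosphatase SHIP1, was lower, with a change of -0.48 at 6 h. Of 16 cytokine and enzyme genes that SYK signalling is known to induce, 7 were higher and 1 lower at 6 h, with a median change of 0.21. Nos2, inducible nitric oxide synthase, rose by 2.61 at 3 h and Tnf by 1.53 at 6 h. The 1 lower gene was Il6, with a change of -0.28 at 6 h. Its mean at 0 h was 5.36, below the median over all probe sets, 6.61. With the lowest probe sets left out, no gene of this list was called lower at 6 h. Whether the Il6 signal stood above background was not tested. Fcer1g, Syk, Inpp5d and Il6, and above them Tpsb2, Trem2, Lilrb3 and Lilra5, were picked from the lists after their values were seen.

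**Figure D5:**
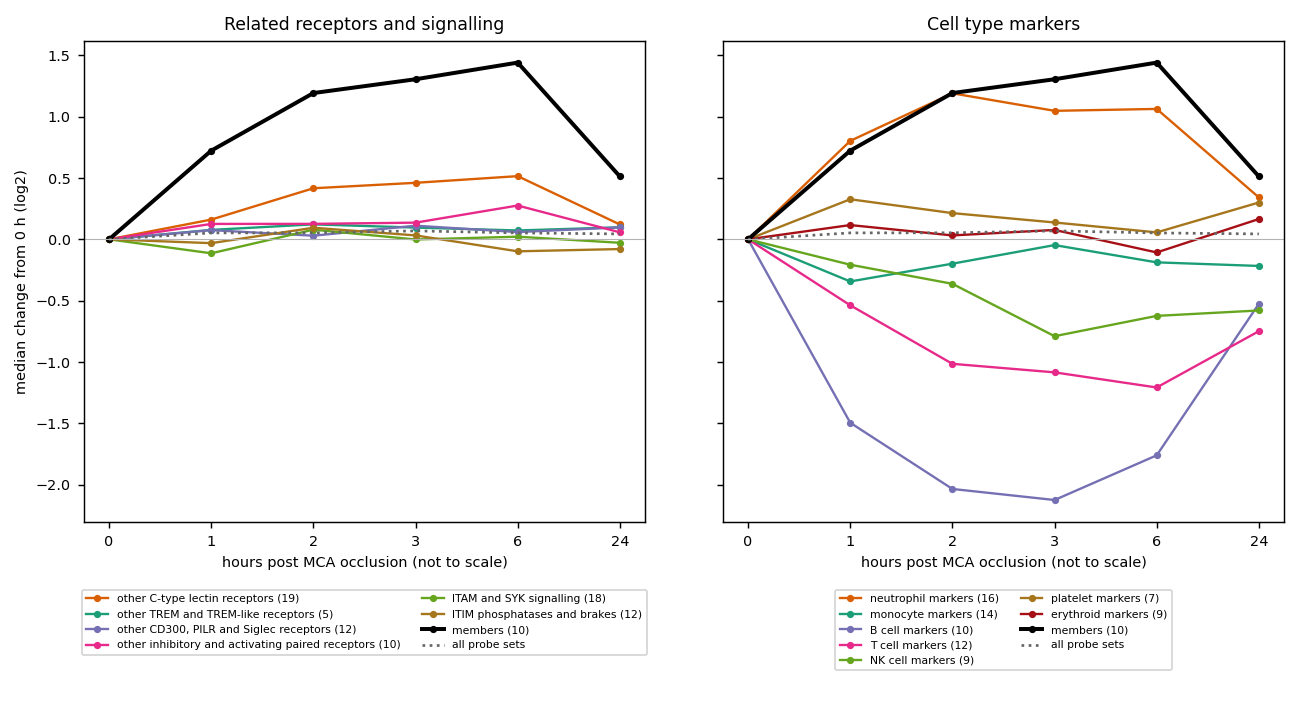
Median change in log2 signal from 0 h (y axis) against hours post MCA occlusion (x axis, not to scale) of the 10 genes (black), of related receptor and signalling lists (left) and of cell type marker lists (right), with the number of genes measured in brackets and the median of all probe sets dotted. The members' median runs close to the neutrophil markers' up to 2 h, and the B and T cell lists run below 0.

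Markers of the blood cells moved over the same hours. Of all probe sets, 21.7% were higher and 15.4% lower at 1 h, and 22.5% and 19.3% at 6 h. At 24 h these shares were 17.4% and 13.9%. Of 16 neutrophil markers, 13 were higher and 1 lower at 1 h, and 14 were higher and 1 lower at 6 h. Their median change was 0.80 (1 h), 1.19 (2 h), 1.05 (3 h), 1.06 (6 h) and 0.34 (24 h), and the mean of their log2 levels ran from 8.44 at 0 h to 9.45 at 6 h. The neutrophil markers with the highest means rose at 6 h, Mmp8, the neutrophil collagenase, by 0.99 and Cxcr2, the receptor for neutrophil chemokines, by 1.59. Of the 14 monocyte markers 6 were higher and 7 lower at 6 h, with a median change of -0.19, against 2 higher and 8 lower at 1 h, and the mean of their log2 levels stayed between 9.36 and 9.69. Lyz2, the lysozyme of myeloid cells, rose by 0.27 at 6 h and Cybb, the phagocyte oxidase, fell by 0.37. Of 10 B cell markers 9 were lower at 6 h, with a median of -1.76, and all 12 T cell markers were lower, with a median of -1.21. The B cell markers with the highest means, Bank1, a scaffold protein, and Cd79b, a chain of the B cell receptor, fell by 1.57 and 1.86 at 6 h. Cd8a, the coreceptor of cytotoxic T cells, and Tcf7, a T cell transcription factor, fell by 1.28 and 1.04. Of 9 NK cell markers 6 were lower at 6 h and of 8 dendritic cell markers 4 were, with 1 higher in each. Klrk1, the receptor NKG2D, and Prf1, perforin, fell by 1.35 and 0.81 at 6 h, and Cd1d1, a lipid-presenting molecule, fell by 0.56, while Flt3, a growth factor receptor, differed by 0.02. Of 7 platelet markers 4 were higher at 1 h and 5 at 24 h, with median changes of 0.33 and 0.30, while at 6 h their changes lay between -0.06 and 0.22. The 2 with the highest means, the platelet chemokines Pf4 and Ppbp, differed from 0 h by 0.05 and 0.21 at 1 h, and Ppbp was higher by 0.30 at 24 h (FDR 0.0278). Of 9 erythroid markers 4 were higher at 1 h and 4 at 24 h, with median changes of 0.12 and 0.17. At 6 h 2 were lower. The haemoglobin genes Hba1 and Hbb, with means over the time points of 13.60 and 13.51, differed from 0 h by 0.02 each at 6 h. Whether the arrays could show a rise from levels this high was not tested. The part of the marker shifts in the members' changes was not tested.

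For each member the gene with the most similar set of 5 changes from 0 h was sought among 19246 genes, by the root mean square difference on the log2 scale. The nearest to Clec4d was Tf, transferrin, at 0.0631, and the nearest to Clec4e was Vstm1, an inhibitory receptor of myeloid cells, at 0.0789. For Clec7a it was Tmem220 at 0.0618, for Trem1 Trim72 at 0.126, and for Tyrobp Lmbr1l at 0.0322. Mcemp1 lay nearest to Nlrp12, an intracellular sensor of the NLR family, at 0.136, and Bst1 to Fndc3b at 0.115. Cd300lf lay nearest to Polk, a DNA polymerase, at 0.0826, and Pilra to Upf3b, a factor of mRNA decay, at 0.0485. The nearest to Cd33 was Prok2, a secreted peptide of neutrophils, at 0.346. Prok2 changed by 3.22 at 6 h beside 3.17 for Cd33, and by 2.00 at 2 h beside 2.51. A small distance is easily reached by a gene that changed little, so the distances are not ranked against one another.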

How the data were processed

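Blood mRNA was hybridized to Affymetrix RaGene 1.0 ST arrays. The authors summarized them by RMA and deposited 1 table of log2 means and SDs per probe set and time point, with gene symbols and positions of annotation na36 on rn5. The submitters' processing notes name limma. The table also holds the authors' fold changes, p-values, FDRs and F-tests, which were not used, and 47 columns of single arrays, whose names give no rat or time. These single arrays entered no step.

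The change of a probe set was the authors' mean at one time minus that at another. Its moderated test took the pooled within-time variance from the deposited log2 SDs (41 degrees of freedom) and shrank it with limma 3.58.1 in R 4.3.3 (prior 5.71 degrees of freedom, prior SD 0.147), two-sided, with Benjamini-Hochberg adjustment over 27596 probe sets. It was tested on simulated data. It takes the arrays as independent, although each rat was sampled repeatedly, and 7 or 8 arrays per time limit its precision. Alternatives were no moderation, an intensity trend with a robust prior, centred or quantile-normalized means, omission of the lowest 25% of probe sets, SDs of the compared times alone, no 24 h samples and Bonferroni adjustment, the last added for neighbouring times after seeing the data.

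The members and gene lists were chosen with earlier results of these data known. Named besides the members were, in each receptor or pathway list, the 2 genes with the largest change past the FDR, in each marker list the 2 with the highest mean, and for each member its nearest gene. Others are said in the text to be picked after their values were seen. For genes with several probe sets the one with the highest mean was used, and 18 listed genes were not matched by symbol. Sequences are from RefSeq (GRCr8).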

Additional observations from a re-analysis of the deposited data

How the results depend on the processing

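No paired analysis was possible because the single array columns carry no name of a rat or a time point, and leaving out each rat in turn was not run for the same reason. The next probe set of a gene was not tried, since no member had a second one. Of 152 recounts of members called, 147 stayed within 1.5 times the reported count. Lower members at 1 h numbered 1 (Pilra) in place of 0 with the means of each time centred on their median. With the SDs of the compared times alone, 1 member in place of 0 rose from 2 to 3 h (Cd33, 0.34, FDR 0.0498). With Bonferroni adjustment 0 in place of 1 were lower at 24 h, and, as an alternative chosen after seeing the data, 2 in place of 7 rose from 1 to 2 h and 0 in place of 1 from 6 to 24 h. Of 700 recomputed member changes, 678 kept their side of the threshold and none reversed. The Bonferroni adjustment ended the 3 calls of Tyrobp against 0 h (at 2, 3 and 6 h), those of Cd300lf at 3 h and of Clec7a and Pilra at 24 h, and 8 between neighbouring times. Trem1 at 24 h passed the FDR threshold after quantile normalization of the means (0.24, FDR 0.036), and Clec4d from 1 to 2 h under 4 alternatives. Bst1 from 1 to 2 h missed the FDR threshold without moderation (0.38, FDR 0.05). Of 1156 recounts of list genes, 54 moved by over 1.5 times. Among the list counts given above, with centred or quantile-normalized means mast cell and basophil markers that were higher numbered 1 at 1 h and 0 at 3 h, those lower 1 at 1 h and 5 at 2 h, higher monocyte markers 1 at 1 h, and lower SYK target genes 2 at 6 h. At 6 h, NAD-handling enzymes that were higher numbered 1 with quantile-normalized means or without the lowest 25% of probe sets. Also at 6 h, that omission left 3 lower mast cell and basophil markers and 0 lower SYK target genes, and lower erythroid markers numbered 1 with quantile-normalized means. With the SDs of the compared times alone, the latter numbered 0, higher monocyte markers 1 at 1 h, and higher mast cell and basophil markers 0 at 3 h. The causes were not tested. The arrays' signal over background was not assessed.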
